A study of Mus musculus with 12 samples.

Results

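The genes described here are 32 protein-coding genes of the mouse that mark reactive astrocytes or belong to the STAT3 signaling that accompanies this state. They comprise 9 pan-reactive genes, 6 genes of the inflammation class and 9 genes of the ischemia class of reactive astrocytes, the transcription factor Stat3 and its inhibitor Socs3, the complement genes C3 and C4b, and the 4 cytokine receptors Il6st, Lifr, Il1r1 and Tnfrsf1a. Members were found by gene symbol in a table of read counts over 55471 genes. All 32 were in the table, 25 of them had enough reads to be among the 19578 genes tested, and the 7 others are given by their counts.

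The libraries were made from primary hippocampal cultures of CD1 mouse embryos (embryonic day 17, mixed-sex litters, genotype labelled WT), grown in Neurobasal medium with B27. A gapmer is a short DNA strand with modified ends that pairs with a chosen RNA and has it cut by the cell's own RNase H. The control group (6 libraries) received a negative control gapmer and the *Neuid* KD group (6 libraries) a gapmer against the long noncoding RNA *Neuid* (Gm10419), both packaged in lipid nanoparticles and given at DIV 7, and RNA was taken 3 days later at DIV 10. The comparison asks what the loss of *Neuid* does to the transcriptome of these cultures. The labels do not say whether the 6 libraries of a group came from separate cultures. The study gives a smaller sample number for its knockdown check of the RNA-seq samples, so some libraries may share a culture. The p-values therefore measure the spread between these libraries, which may be technical.

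Astrocytes react to injury, infection or ischemia with a change of gene expression, in which a core of pan-reactive genes is induced in most settings and other genes are induced mainly after inflammation or mainly after ischemia. Cytokines of the IL-6 family (IL-6, LIF, CNTF, oncostatin M) drive much of this response through receptor complexes that share the subunit gp130, encoded by Il6st. The receptors activate JAK kinases, which phosphorylate STAT3, and STAT3 dimers bind DNA at a palindrome and induce target genes, among them Socs3, whose product shuts the receptors off again. IL-1 and TNF, the other main triggers, act through Il1r1 and Tnfrsf1a and NF-kB.

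A control library held 18002585 to 30914714 counted reads and a *Neuid* KD library 11152556 to 30573480, so that 1 read was worth between 0.0334 and 0.0842 CPM (counts relative to the TMM-scaled library size, on the CPM scale of edgeR). *Neuid* was at 28.4 ± 2.03 CPM in control libraries and at 8.05 ± 1.13 CPM after *Neuid* KD (SD, n = 6 each), without overlap. Reads on olfactory, vomeronasal and taste receptor genes, which these cultures should not express, served as a measure of background and summed to between 26.7 and 667 CPM. Background was at least 100 CPM in 7 libraries (4 control, 3 *Neuid* KD) and lower in 5 libraries (2 control, 3 *Neuid* KD), a split that crosses the groups. Neuronal markers were abundant in both groups (summed level of 10 markers 5324 to 6282 CPM in control and 5162 to 6285 CPM after *Neuid* KD), and astrocyte markers were present in both.

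The STAT palindrome was searched as TTCNNNGAA, which reads the same on both strands, in RefSeq promoter windows of GRCm38.p6 that run from 250 bases before to 50 bases after a gene start. Windows were found for 27 of the 32 members. Of their 34 windows, 5 (14.7%) held the palindrome, against 2726 of all 32851 windows (8.30%). The 5 members with such a window were Socs3, Steap4, Emp1, Tnfrsf1a and Tgm1. Tgm1 had too few reads for the main test described below. None of the others was called higher or lower with it, although Steap4 and Socs3 were called lower in some alternatives. A match is a description of the letters and not evidence of binding. The windows of Socs3 and Steap4 are shown because both genes are established targets of IL-6 family signaling, a choice made after their values were seen. The capitals mark the palindrome, and both stretches are written 5′ to 3′ on the strand of the gene.
Socs3, chr11:117969486-117969546, minus strand, palindrome starting 154 bases before the gene start: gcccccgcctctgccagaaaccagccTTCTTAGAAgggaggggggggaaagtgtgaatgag
Steap4, chr5:7960330-7960390, plus strand, palindrome starting 116 bases before the gene start: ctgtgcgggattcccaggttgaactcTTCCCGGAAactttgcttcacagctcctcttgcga
The gene starts named are those of the RefSeq windows. The stretch of Socs3 lies within the bounds of the annotated gene (117966079 to 117970047), and the stretch of Steap4 lies upstream of the annotated gene.

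The reactive and STAT3 genes did not move together in *Neuid* KD. A gene was called higher or lower where the adjusted p of edgeR's quasi-likelihood test was under 0.05 and the log2 fold change was beyond 0.5 in either direction. Of the 25 tested members, 1 was called higher (Osmr) and 2 were called lower (Cp and Ggta1), where 2.44% of all tested genes were called higher and 0.792% lower. The number called lower ran from 1 to 4 over the alternatives, and that over all genes, 155 here, from 111 within the libraries of high background to 331 with DESeq2 and 1 factor of unwanted variation, with 269 when *Neuid* KD replicate 1 was left out. With no fold threshold, 3 members were higher (Osmr, Lifr and Il6st) and 3 lower (Cp, Ggta1 and Amigo2), beside 6.31% and 2.42% of all tested genes. The median log2 fold change of the tested members was -0.29 (range -1.65 to 1.22), with 9 positive and 16 negative values, and that of all tested genes was -0.03, with 44.4% positive values. All 8 tested members with a mean over 2 times as high in the libraries of high background had negative values. With no filter on low counts the median of all genes was -0.14. The part of background in the negative values was not tested. The levels of 4 members did not overlap between the groups (Osmr, Lifr, Il6st and Cd44), as did those of 5.7% of all tested genes. Summed over all 32 members, the level was between 322 and 345 CPM in control libraries and between 342 and 363 CPM after *Neuid* KD. The mean of this sum rose from 335 to 352 CPM, while that of Lifr alone rose from 45.4 to 60.5 CPM and that of Il6st from 49.3 to 60.2 CPM. The sum thus follows its abundant members and does not describe most of the 32. In bulk RNA, fewer cells of a type and less RNA per cell cannot be told apart.

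**Figure D1:**
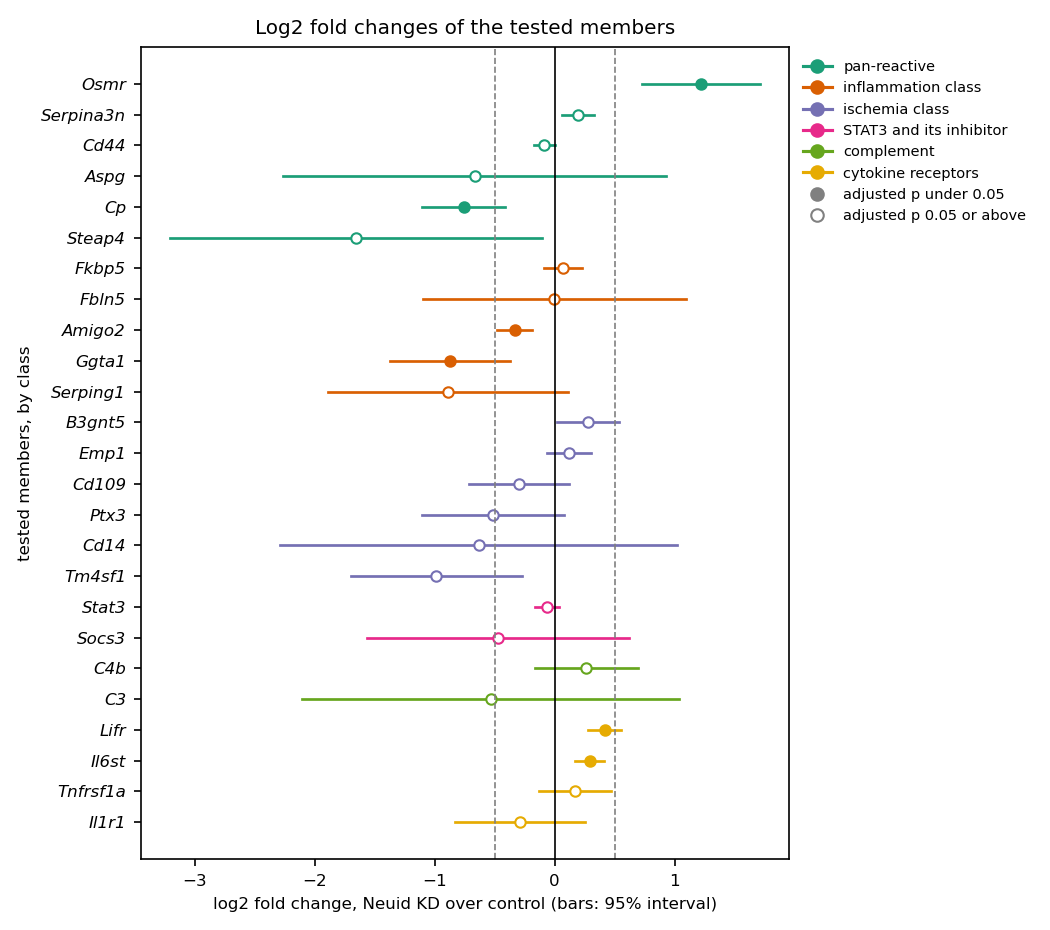
Log2 fold change of each tested member, *Neuid* KD over control (x axis, bars are the 95% interval of the fit), grouped by class (y axis and color). Filled points have an adjusted p under 0.05 and dashed lines mark the fold threshold of 0.5. Osmr lies at 1.22, Cp and Ggta1 at -0.76 and -0.87, and the intervals of most other members cross 0 or stay within the dashed lines.

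The receptor subunits of the IL-6 family were the members that were higher after *Neuid* KD. Osmr encodes the subunit that pairs with gp130 to bind oncostatin M and is counted among the pan-reactive genes (chr15, 6813577 to 6874969, minus strand). It was at 3.72, 1.84, 1.53, 4.04, 1.57 and 2.49 CPM in control libraries 1 to 6 and at 7.33, 4.54, 5.05, 6.26, 6.52 and 5.55 CPM after *Neuid* KD 1 to 6. All 6 *Neuid* KD libraries were above all 6 control libraries. The means were 2.53 ± 1.10 and 5.87 ± 1.02 CPM (SD, n = 6 each), which rested on 34 to 87 reads per control library and 87 to 179 reads per *Neuid* KD library. The log2 fold change was 1.22 (95% interval 0.73 to 1.71, SE 0.232, adjusted p = 0.00193 in edgeR). Osmr kept this call within the 7 libraries of high background, at a log2 fold change of 1.11, and within the 5 of low background, at 1.74. Per kilobase of exon Osmr ranked 25 of the 32 members in control libraries, at 0.209 CPM per kb, and was at 0.485 CPM per kb after *Neuid* KD.

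The shared signaling subunit and the LIF receptor moved in the same direction by less. Lifr, which binds LIF and also serves in the receptor of CNTF, ranged from 38.4 to 50.3 CPM in control libraries (median 45.9) and from 54.1 to 67.7 CPM after *Neuid* KD (median 59.9). Il6st, the gp130 gene, ranged from 44.4 to 51.9 CPM (median 50.7) and from 52.4 to 63.4 CPM (median 61.9). Neither gene overlapped between the groups. The lowest *Neuid* KD library of both was replicate 1, the one with the fewest reads and the highest background of its group (617 CPM). The lowest control library of both was also replicate 1, with the fewest reads and the highest background of the control group (667 CPM). The log2 fold change was 0.42 for Lifr (SE 0.0662, adjusted p = 0.000351) and 0.29 for Il6st (SE 0.0557, adjusted p = 0.00206), both under the fold threshold. Within the 7 libraries of high background the adjusted p of Il6st was 0.199, at a log2 fold change of 0.26 (over all alternatives 2.1e-06 to 0.199).

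The receptors of IL-1 and TNF did not pass the test. Tnfrsf1a, the main TNF receptor, was at 4.86 ± 1.05 CPM in control and 5.50 ± 0.732 CPM after *Neuid* KD, with a log2 fold change of 0.17 (95% interval -0.13 to 0.47). Il1r1, which carries the IL-1 signal, was at 2.97 ± 1.13 and 2.43 ± 0.437 CPM, with a log2 fold change of -0.29 (95% interval -0.83 to 0.26) that was 0.50 within the 5 libraries of low background. Summed over the 4 receptors outside the pan-reactive group, the level was between 91.1 and 107 CPM in control libraries and between 115 and 139 CPM after *Neuid* KD, and Il6st and Lifr made up most of both.

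**Figure D2:**
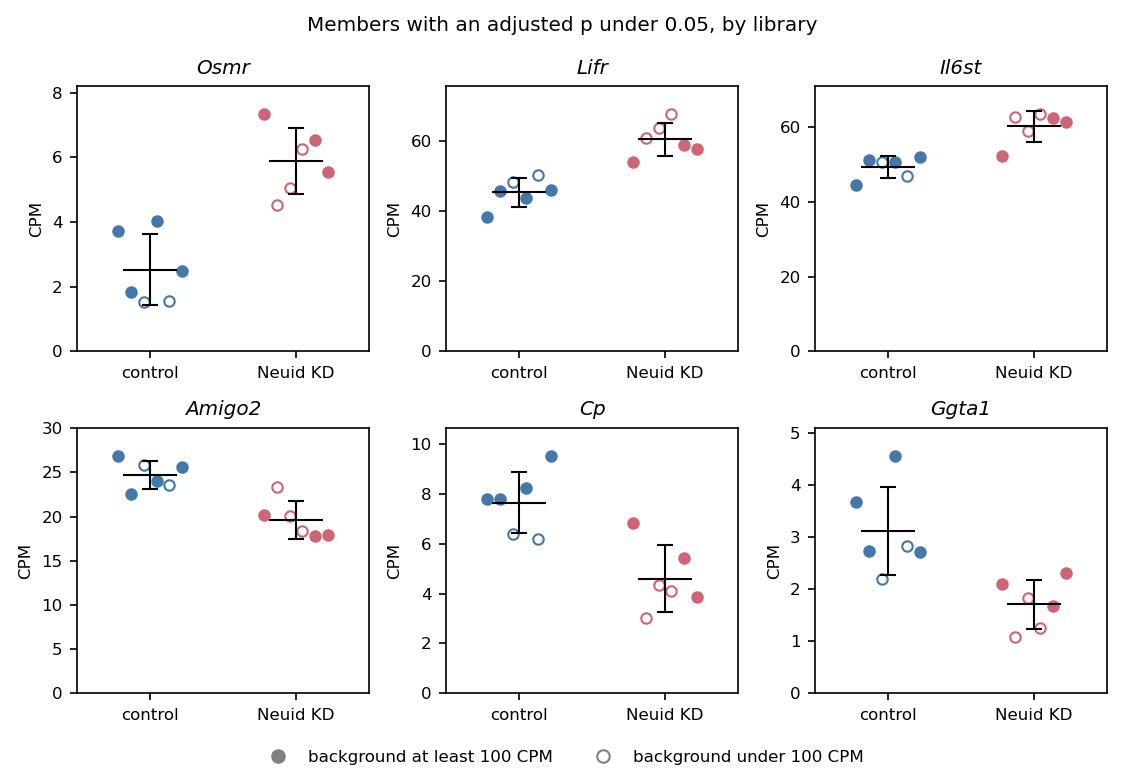
CPM of the 6 members with an adjusted p under 0.05 in each library (y axis from 0, one panel per gene), with control in blue and *Neuid* KD in red. Horizontal lines are means, error bars SD (n = 6), and open points are libraries with a background under 100 CPM. Osmr, Lifr and Il6st separate fully, while 1 *Neuid* KD library lies within the control range for each of Amigo2, Cp and Ggta1.

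Stat3 itself was abundant and nearly level between the groups. It ranged from 58.7 to 67.4 CPM in control libraries (median 64.9) and from 57.8 to 63.8 CPM after *Neuid* KD (median 61.2), and the groups overlapped. Its log2 fold change was -0.06, and its 95% interval of -0.16 to 0.04 was narrow (adjusted p = 0.573). Phosphorylation, by which STAT3 is activated, was not measured by these counts. Stat3 overlaps Stat5a on the opposite strand, and whether the counting used strand is not given in the sources used here.

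Socs3, the feedback inhibitor and a direct readout of STAT3 activity in many cells, was low and scattered. It ranged from 0.588 to 2.68 CPM in control libraries (median 1.45) and from 0.233 to 2.19 CPM after *Neuid* KD (median 0.895), on 13 to 52 and 6 to 39 reads. The log2 fold change was -0.47 with a 95% interval of -1.56 to 0.62 (adjusted p = 0.754), which is too wide to place its level above or below control at this depth. The 3 *Neuid* KD libraries of low background held 6, 8 and 16 Socs3 reads and the 2 such control libraries 38 and 26. Within these 5 libraries the log2 fold change was -1.67 (adjusted p = 0.0363), within the other 7 it was 0.16, and the adjusted p over all alternatives ran from 0.0363 to 0.987.

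Pan-reactive genes went both ways. Of the 9, 6 were tested, 1 was called higher (Osmr) and 1 lower. Cp encodes ceruloplasmin, a copper-binding ferroxidase that astrocytes make in a secreted and a membrane-anchored form (chr3, 19957054 to 20009145, plus strand). It was at 7.80, 7.77, 6.40, 8.21, 6.2 and 9.49 CPM in control libraries 1 to 6 and at 6.82, 3.03, 4.35, 4.09, 5.41 and 3.87 CPM after *Neuid* KD 1 to 6. In 5 of the 6 *Neuid* KD libraries Cp was below the lowest control library, and replicate 1 was within the control range. The mean fell from 7.65 ± 1.22 to 4.6 ± 1.34 CPM (SD, n = 6 each), a log2 fold change of -0.76 (95% interval -1.10 to -0.41, adjusted p = 0.00566). Cp overlaps Hps3 on the opposite strand.

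Cd44 and Serpina3n, the 2 pan-reactive genes with many reads, stayed close to their control level. Cd44, a receptor for hyaluronan that rises in many reactive astrocytes, was at 41.4 ± 0.859 CPM in control and 39.0 ± 1.57 CPM after *Neuid* KD. The 6 *Neuid* KD libraries (35.8 to 40.1 CPM) were all below the 6 control libraries (40.5 to 42.8 CPM), but the log2 fold change was only -0.09 and did not pass the test (adjusted p = 0.283). Serpina3n, a secreted serine protease inhibitor and one of the strongest markers of reactive astrocytes in vivo, was at 19.7 ± 1.03 and 22.5 ± 1.95 CPM, with a log2 fold change of 0.19 (95% interval 0.06 to 0.32, adjusted p = 0.0672). It was above the highest control library in 5 of 6 *Neuid* KD libraries. Serpina3n has close copies beside it in the genome, so its counts are uncertain where reads could be shared.

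Steap4, a metalloreductase, had few reads. Its counts were 19, 16, 16, 32, 9 and 25 in control libraries 1 to 6 and 9, 2, 0, 2, 11 and 7 in *Neuid* KD libraries 1 to 6. The levels were 0.871 ± 0.403 and 0.287 ± 0.293 CPM (SD, n = 6 each), and the log2 fold change of -1.65 had a wide 95% interval of -3.20 to -0.10 (adjusted p = 0.222). It was called lower with 1 factor of unwanted variation in the edgeR fit (adjusted p = 0.00486), with background as a covariate (0.00369) and within the low-background libraries (0.0247), while the adjusted p was up to 0.575 in the other alternatives. Aspg, an asparaginase, was at 0.624 ± 0.532 and 0.392 ± 0.205 CPM and did not pass the test (log2 fold change -0.67).

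Lcn2, Timp1 and Hspb1 were under the filter on low counts. Lcn2, the secreted lipocalin that astrocytes release in large amounts on inflammation, had 18, 15, 19, 20, 9 and 11 reads in control libraries and 4, 1, 1, 7, 8 and 8 reads in *Neuid* KD libraries (0.674 ± 0.214 and 0.236 ± 0.159 CPM). In 5 of 6 *Neuid* KD libraries its level was below that of every control library. With no filter on low counts its log2 fold change was -1.5 and its adjusted p was 0.552. Timp1, an inhibitor of metalloproteinases, had 3 to 29 reads per control library and 0 to 6 per *Neuid* KD library, and it lies on the opposite strand of the neuronal gene Syn1. Hspb1, a small heat shock protein, had 6 reads in all control libraries together and 5 in all *Neuid* KD libraries.

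Of the 6 genes of the inflammation class, 5 were tested, 1 was called lower and 0 higher. Ggta1 encodes a galactosyltransferase that adds the alpha-gal sugar to glycoproteins (chr2, 35400179 to 35463231, minus strand). It was at 3.67, 2.73, 2.2, 4.55, 2.82 and 2.71 CPM in control libraries 1 to 6 and at 2.10, 1.09, 1.82, 1.26, 1.68 and 2.30 CPM after *Neuid* KD 1 to 6. All but 1 of the *Neuid* KD libraries were below the lowest control library. The mean fell from 3.11 ± 0.846 to 1.71 ± 0.472 CPM (SD, n = 6 each), a log2 fold change of -0.87 (95% interval -1.37 to -0.37, adjusted p = 0.0268). The call was lost without control replicate 1 or 4 or *Neuid* KD replicate 2 or 4 (adjusted p = 0.0543, 0.0798, 0.0638 and 0.0728), without a filter on low counts, and within either set of libraries split by background, where the log2 fold changes were -0.74 and -0.89. Ggta1 overlaps Gm43761 on the same strand.

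Amigo2, an adhesion molecule of neurons and astrocytes (chr15, 97244125 to 97247287, minus strand), was one of the best measured members. It ranged from 22.6 to 26.8 CPM in control libraries (median 24.8) and from 17.8 to 23.4 CPM after *Neuid* KD (median 19.2), and only *Neuid* KD replicate 2 lay within the control range. The log2 fold change was -0.33 (SE 0.0701, adjusted p = 0.00458), under the fold threshold, with an adjusted p of up to 0.0566 in the alternatives. Its gene overlaps Pced1b on the opposite strand.

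The other inflammation-class genes did not pass the test. Fkbp5, a cochaperone of the glucocorticoid receptor, was at 21 ± 2.33 and 22.2 ± 1.90 CPM (log2 fold change 0.07, 95% interval -0.09 to 0.23). Serping1, the C1 esterase inhibitor that restrains complement, was at 1.74 ± 1.13 and 0.953 ± 0.531 CPM (log2 fold change -0.89, adjusted p = 0.350). Fbln5, an elastic fiber protein, was at 1.24 ± 0.926 and 1.25 ± 0.835 CPM, with a log2 fold change of -0.00 whose sign turned in several alternatives. Srgn, the proteoglycan of secretory granules, was not tested, with 0 to 17 reads per control library and 0 to 7 per *Neuid* KD library.

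No gene of the ischemia class was called with the main edgeR fit, with 6 of 9 tested and 2 at an unadjusted p under 0.05 (B3gnt5 and Tm4sf1). B3gnt5, a glycosyltransferase that starts the lacto-series glycolipids, was its most abundant member, at 18.1 ± 3.01 CPM in control and 21.8 ± 4.07 CPM after *Neuid* KD (log2 fold change 0.28, 95% interval 0.02 to 0.54, adjusted p = 0.227). Emp1, a membrane protein of epithelial and glial cells, was at 6.15 ± 0.630 and 6.67 ± 0.240 CPM (log2 fold change 0.12). The interval of Emp1, -0.07 to 0.30, lay within the fold threshold. Ptx3, a secreted pattern recognition molecule, was at 2.81 ± 0.512 and 1.99 ± 0.965 CPM (log2 fold change -0.51, adjusted p = 0.363). Cd109, a GPI-anchored coreceptor of TGF-beta, was at 5.60 ± 1.5 and 4.6 ± 1.25 CPM (log2 fold change -0.29).

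Tm4sf1, a tetraspan membrane protein also found in endothelium, came close to the call. It ranged from 0.867 to 2.68 CPM in control libraries (median 2.19) and from 0.621 to 1.43 CPM after *Neuid* KD (median 0.938), with overlapping groups. The log2 fold change was -0.99 (95% interval -1.70 to -0.28, adjusted p = 0.0876). It was called lower in 6 of 23 alternatives: in edgeR with 1 factor of unwanted variation (adjusted p = 0.0108), with background as a covariate (0.00873), without control replicate 3 (0.0304) and without *Neuid* KD replicate 1 (0.0461), and in DESeq2 without that factor (0.0127) and with it (0.00212). In the last of these, a fit of the kind named in the study's methods, its log2 fold change was -0.88. The adjusted p over all alternatives was up to 0.438. Cd14, the coreceptor for bacterial lipopolysaccharide, had 0 to 24 reads per control library and 2 to 15 per *Neuid* KD library and did not pass the test. The cytokine Clcf1, which signals through the CNTF receptor, the transglutaminase Tgm1 and the steroid sulfate transporter Slc10a6 were not tested, with summed counts of 82, 62 and 32 reads in control and 49, 46 and 18 reads in *Neuid* KD.

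The complement genes did not pass the test. C3, the central component of the cascade, which is used as a marker of reactive astrocytes after inflammation, was at 1.65 ± 1.42 CPM in control and 1.18 ± 1.32 CPM after *Neuid* KD (log2 fold change -0.53, 95% interval -2.10 to 1.04). Its spread within each group was as wide as its mean. C4b, which is upstream of C3 in the classical pathway, was at 2.67 ± 0.699 and 3.21 ± 0.673 CPM (log2 fold change 0.26, adjusted p = 0.602). C4b and C4a are near-identical copies, so reads could be shared between them.

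Many members with few reads were higher in the libraries of high background. In 14 of the 32 members the mean over the 7 libraries of high background was over 2 times that over the 5 libraries of low background, and 9 of the 10 members under 1 CPM in both groups were among them. Since the high set holds more control libraries and the low set more *Neuid* KD libraries, the ratio was also taken within each group, and it was over 2 within both groups for 8 members (Steap4, Fbln5, Srgn, Clcf1, Tgm1, Slc10a6, Cd14 and C3). For C3 it was 6.16 within control and 6.65 within *Neuid* KD, and for Slc10a6 5.08 and 4.66. Lcn2 (1.43 and 3.28) and Socs3 (1.33 and 4.68) showed it only within *Neuid* KD. For the 6 members with an adjusted p under 0.05 the ratio over all libraries was between 0.846 and 1.53, and that of Osmr was 1.94 within control and 1.22 within *Neuid* KD. The part of background in the levels of the low members was not tested.

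**Figure D3:**
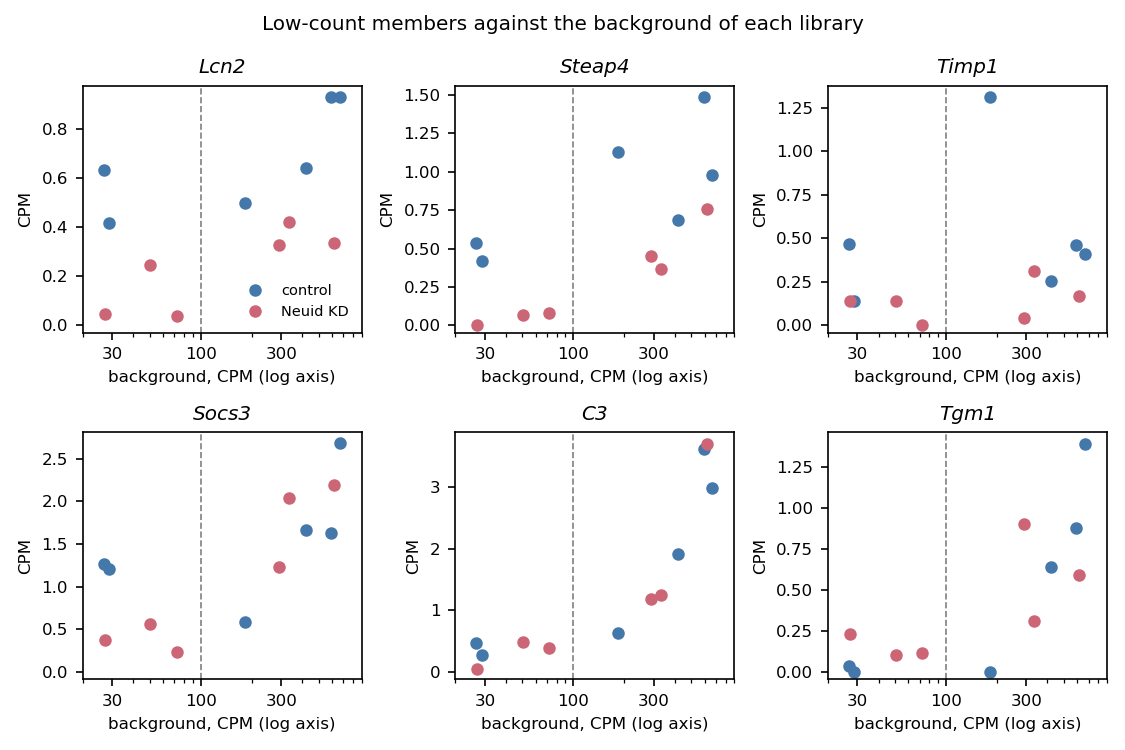
CPM of 6 low members (y axes from about 0, one panel per gene) in each library against the summed CPM on chemosensory receptor genes (x axis, log scale), control in blue and *Neuid* KD in red. The dashed line marks 100 CPM. C3 is highest in the libraries of highest background in both groups, Tgm1 is scattered to the right of the line and has 0 reads in 1 control library there, and for Lcn2 and Steap4 the *Neuid* KD libraries lie mostly below control libraries of like background.

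Per kilobase of exon, the control level was highest for Serpina3n (9.54 CPM per kb), Amigo2 (7.81), Stat3 (6.70), Cd44 (6.11), Il6st (4.44) and Lifr (4.21). Hspb1, at 0.0435 CPM per kb, was the lowest of the 32. The chain from gp130 and the LIF receptor to Stat3 was thus among the highest members per length, whereas Lcn2 (0.257 CPM per kb), Timp1 (0.572) and C3 (0.321), which are known for strong induction in reactive astrocytes, were low in both groups.

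Other genes of the same reactive classes, outside the 32, were mostly lower, with 10 negative and 2 positive log2 fold changes. Of 12 tested, 1 was called higher and 4 lower, beside 2.44% and 0.792% of all tested genes. Their median log2 fold change was -0.69. Of all tested genes, 44.4% had a positive value. Gfap, the intermediate filament that is the classic marker of reactive astrocytes, rose from 140 ± 8.22 to 210 ± 5.58 CPM (log2 fold change 0.59), and Vim, its partner filament, fell from 555 ± 29.1 to 332 ± 8.63 CPM (log2 fold change -0.74). The sphingosine 1-phosphate receptor S1pr3 (-1.83), the guanylate-binding protein Gbp2 (-3.34) and the immunoproteasome subunit Psmb8 (-1.60) were also lower, the last 2 of them interferon-induced genes. H2-D1 was lower by less than the fold threshold (log2 fold change -0.37, adjusted p = 0.00115 in edgeR). The 2 filament genes went opposite ways, as did the members Osmr and Cp.

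The rest of the pathway was described from lists of ligands, kinases and partners. Of 10 other IL-6 family ligands and receptors, 6 were tested and 1 was called higher, the IL-11 receptor Il11ra1 (1.05 ± 0.394 to 2.07 ± 0.333 CPM, log2 fold change 0.97, adjusted p = 0.0433), a call that was lost in most of the fits that left out 1 library. The ligands Il6, Osm, Cntf and Ctf1 were not tested, at group means between 0.0659 and 0.433 CPM. Lif was at 1.41 ± 0.467 CPM in control and 0.655 ± 0.437 CPM after *Neuid* KD (log2 fold change -1.13, adjusted p = 0.161). The partner receptors Cntfr (30.5 and 29.5 CPM) and Il6ra (3.51 and 3.47 CPM) had log2 fold changes of -0.05 and -0.02.

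Of 14 tested JAK kinases, STATs and feedback inhibitors, 0 were called in edgeR, and 6 had an unadjusted p under 0.05. Stat2, the STAT of type I interferon signaling, had an adjusted p under 0.05 (23.1 ± 1.94 to 17.8 ± 1.64 CPM, log2 fold change -0.37, adjusted p = 0.00196). In the NF-kB, IL-1 and TNF list, 17 of 22 genes were tested and 1 was called higher, the adhesion molecule Vcam1 (25.5 ± 2.49 to 44.2 ± 3.02 CPM, log2 fold change 0.80). In this list 5 genes had an unadjusted p under 0.05. Relb was higher by less than the fold threshold (6.26 ± 0.852 to 8.37 ± 1.16 CPM, log2 fold change 0.41, adjusted p = 0.0234 in edgeR). Of 12 other complement genes, 7 were tested and 0 were called, with 1 at an unadjusted p under 0.05, the secreted chaperone and complement regulator Clu (log2 fold change 0.35, adjusted p = 6.2e-05).

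Astrocyte markers, listed here as homeostatic, were mostly higher after *Neuid* KD. Their levels alone do not tell resting from reactive cells. Of 13 tested markers, 10 were called higher and 0 lower, beside 2.44% and 0.792% of all tested genes. Their median log2 fold change was 1.25. Those with the largest changes were S100b (2.64), the connexin Gja1 (2.27), the water channel Aqp4 (2.10) and the bicarbonate transporter Slc4a4 (1.55). The summed level of the 14 markers was between 1780 and 2255 CPM in control libraries and between 3293 and 4017 CPM after *Neuid* KD. Whether Osmr, Lifr and Il6st moved with the number of astrocytes or within them was not tested.

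Markers of other cell types that express members were low. Of 12 microglial markers, 5 were tested and 0 were called, the summed level was between 14.6 and 22.6 CPM in control libraries and between 12.9 and 21.7 CPM after *Neuid* KD, and P2ry12, Tmem119, C1qa, C1qb, C1qc, Ctss and Tyrobp were at 0.0544 to 0.267 CPM in the group means. Of 9 endothelial markers, 7 were tested and 0 called (summed level 7.26 to 26 CPM and 7.11 to 24.5 CPM), with Cldn5 at 0.129 and 0.0698 CPM. No marker of either list had an unadjusted p under 0.05.

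Markers of fibroblasts and mural cells summed to between 102 and 137 CPM in control libraries and between 81.8 and 98.1 CPM after *Neuid* KD. None of the 12 was called in edgeR, and the 1 with an unadjusted p under 0.05 was fibronectin, Fn1 (log2 fold change -0.46, adjusted p = 0.00522). The summed level of this list did not overlap between the groups and was lower after *Neuid* KD. Fn1, at 60.8 ± 5.11 CPM in control and 43.8 ± 8.11 CPM after *Neuid* KD, was the largest part of this sum. Dcn, the next most abundant, was at 21.6 and 20.9 CPM (log2 fold change -0.05). Over the list, 2 log2 fold changes were positive and 10 negative. Taken singly, each of the 12 markers overlapped between the groups. The part of these markers in the values of Cp and Ggta1 was not tested. Of 6 markers of oligodendrocyte precursors, Olig2 (1.67) and Olig1 (1.47) were called higher. Pdgfra (0.44), Cspg4 (0.16), Sox10 (0.09) and Gpr17 (-0.77) were not called. Of 10 neuronal markers 0 were called (median log2 fold change 0.02, with 2 at an unadjusted p under 0.05). DESeq2 also called 0 genes of the JAK and STAT, complement, microglial, endothelial, fibroblast and neuronal lists. With 1 factor of unwanted variation it called 1 endothelial marker lower, 1 fibroblast or mural marker higher and 2 lower, and 0 in the others.

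**Figure D4:**
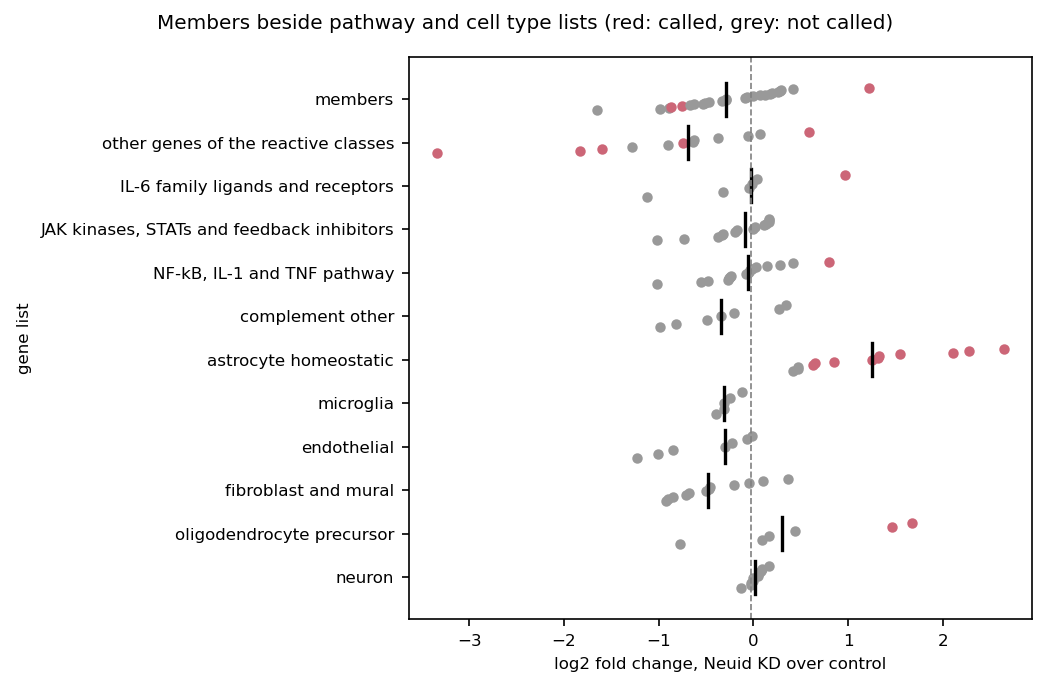
Log2 fold change of every tested gene (points) in the members and in 11 other gene lists (y axis), with red points for called genes, black bars for the median of each list and the dashed line for the median of all tested genes. The members spread around a median of -0.29 and homeostatic astrocyte markers around 1.25.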

How the data were processed

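RNA-seq was performed on 12 libraries (6 control, 6 *Neuid* KD), prepared with the SMARTer Stranded Total RNA-Seq Pico kit and read as 50 bp single reads. Per the labels and the study's methods, the authors converted and trimmed reads with bcl2fastq, aligned them to mm10 with STAR, counted them per gene with featureCounts and deposited the raw counts without normalization. The strand setting and the annotation release of the counting are not given in the sources used here. Strand-blind counting would add reads of an overlapping gene to a member, and overlaps are named beside each such member that passed a threshold.

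Genes were named and placed with GENCODE M21 (GRCm38), which held 55230 of the 55471 gene identifiers. Genes with low counts were removed with filterByExpr of edgeR (version 4.0.16), libraries were scaled with TMM, and the 19578 remaining genes were fitted with the quasi-likelihood test on the group alone, with Benjamini-Hochberg adjustment over all of them. CPM use the TMM-scaled library size and levels are means ± SD over 6 libraries. A level of 3 reads was 0.100 to 0.253 CPM, depending on the library, and a level below it is not distinguished from 0. Members were named in full, called members with all libraries, and up to 4 called genes were named from each other list by size of change. The members and all gene lists were chosen with earlier results of these data known. No set test was run, no columns were left unmapped, and no pair of libraries held identical values. The fit was tested on simulated data, where 125 of 200 genes changed by a log2 fold of 1 were recovered (62.5%), with 3 false calls. A gene that did not pass the test may therefore still have changed.

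The study's methods name DESeq2 with RUVseq, and DESeq2 (version 1.42.0) with 1 factor estimated from the replicate groups was run as an alternative. Other alternatives were other normalizations and filters, other fold thresholds, the replicate number as a block, background as a covariate, libraries split at a background of 100 CPM, and each library left out in turn.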

Additional observations from a re-analysis of the deposited data

Results flagged for a closer look

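Of 50 groups of 6 libraries checked over the tested members, 3 held a library whose gap to the nearest of the others was above Dixon's 95% critical share of the range, and chance gives about 1 in 20. Cd44 was at 35.8 CPM in *Neuid* KD replicate 6 and between 39.1 and 40.1 CPM in the others of its group. C3 was at 3.70 CPM in *Neuid* KD replicate 1, which has the highest background of its group, and between 0.0468 and 1.26 CPM in the others. Il1r1 was at 1.54 CPM in *Neuid* KD replicate 3, which has the lowest background of its group, and between 2.52 and 2.68 CPM in the others.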

How the results depend on the processing

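Osmr was called higher in all alternatives, and Lifr joined it at a fold threshold of 0.3 (2 members) and Il6st with no threshold (3 members). The 2 members called lower, Cp and Ggta1, became 4 with 1 factor of unwanted variation in edgeR and with background as a covariate (adding Tm4sf1 and Steap4), 3 with DESeq2 with or without that factor (adding Tm4sf1) and within the libraries under 100 CPM of background (Cp, Steap4 and Socs3), 3 at a fold threshold of 0.3 or none (adding Amigo2), and 1 (Cp) with no filter on low counts and within the libraries of at least 100 CPM of background. With 1 library left out at a time, 1 to 3 members were called lower. Cp was called in every one of these fits.

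The log2 fold change of Fbln5 turned from -0.00 to 0.30 with the factor in edgeR, 0.29 with the factor in DESeq2, 0.0323 with no filter, 0.0857 with the replicate block, 0.25 with the background covariate, 0.15 and 0.58 within the libraries of high and low background, and ran from -0.39 to 0.37 with 1 library left out. Socs3 turned to 0.16 within the libraries of high background and Il1r1 to 0.50 within those of low background. The causes were not tested. *Neuid* was lower in all alternatives, from -1.93 to -1.74.

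Over all tested genes, the 155 genes called lower became 260 with DESeq2, 283 with the factor, 331 with both, 300 with the background covariate and 269 without *Neuid* KD replicate 1. Without a filter on low counts the median log2 fold change of all genes was -0.14. With the replicate number as a block, 1 member was called higher and 2 lower, as without it, and 7 had an adjusted p under 0.05 in place of 6. Libraries with the same number did not all deviate together (correlations of -0.64 to 0.77, and 2 of 6 highest with their own number). These 2 were replicates 1 and 3 (0.77 and 0.75). Their control and *Neuid* KD libraries had like background (667 and 617 CPM for replicate 1, 26.7 and 27.1 CPM for replicate 3). The numbers were not taken as a pairing. The 7 untested members had too few reads for the filter of the main fit, so the main test does not bear on them. With no filter on low counts all 32 members were fitted, and only Osmr and Cp were called.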
